A study of Homo sapiens with 6 samples.

Results

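The genes described here are 10 cyclins and cyclin-dependent kinases (CDKs), which were found by name among the 19491 genes listed. They are the D-type cyclins CCND1 and CCND3 with CDK4, the E-type cyclins CCNE1 and CCNE2 with CDK2, and CCNA2, CCNB1, CCNB2 and CDK1. They were measured by sequencing of total RNA from PC-3 cells, an established line of androgen-independent human prostate cancer, grown in RPMI medium with 10% fetal bovine serum. The cultures were kept for 48 h with 1 mM of GPNA, with 10 mM of BenSer or with neither (control). GPNA is gamma-glutamyl-p-nitroanilide and BenSer is benzylserine. Both are amino acid analogues that are used as inhibitors of the glutamine transporter ASCT2 (SLC1A5). The doses differed, so their values are given side by side and no comparison at a matched dose could be made.

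The deposited values were CPM, the reads of a gene per 1000000 reads of its library. The labels name 2 libraries per group, numbered 1 and 2, and the 6 columns with those names were used. Their totals ranged from 23077986 to 32178154 reads, and listed genes took 51.6% to 52.7% of them. All 10 genes passed the expression filter, which asked for a mean of 5 reads or more in at least 1 of the groups compared. Within a group, the spread between columns 1 and 2 barely exceeded that of sampled reads (chi-square per degree of freedom 1.04 to 1.06, and 5.33 to 20.6 for columns of different groups). The study's methods speak of replicates in each group, but with so small a spread, and no label that gives separate cultures, each pair was taken as 1 sample here, so that a treatment difference had no replicate check and no p-value is given for a treatment. The 95% intervals below were computed from the reads and cover counting error only. The p-values of limma compare these libraries, and not the treatments. The epithelial markers KRT8, KRT18, EPCAM and CDH1 ranged from 85.6 to 292 CPM over the 6 columns. Of 6 markers of leukocytes, fibroblasts and endothelium, COL1A1 ranged from 3.65 to 6.07 CPM and was the only one listed. In RNA from bulk cultures, fewer cells in a phase of the cell cycle and less RNA per cell cannot be told apart.

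Cyclins are regulatory subunits that rise and are destroyed in turn during the cell cycle, and each activates a partner kinase. D-type cyclins with CDK4 or CDK6 act in G1 and start the phosphorylation of the retinoblastoma protein, E-type cyclins with CDK2 act at the G1/S transition, cyclin A2 acts in S and G2, and cyclins B1 and B2 with CDK1 drive entry into mitosis. Genes that act in G2 and mitosis often carry a cell cycle homology region (CHR) and CCAAT boxes just upstream of their start, elements known to be read by the DREAM and MuvB complexes and by the CCAAT-binding factor NF-Y.

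The RefSeq promoters examined held 10 starts of 7 of these genes. The 4 genes of S phase, G2 and mitosis are shown because their transcripts gave the lowest differences from the control with BenSer. The sequences are those of GRCh37 on the strand of the gene, upstream of the annotated first exon or, for CDK1, directly upstream of the second RefSeq start, where annotated first exons of other CDK1 transcripts overlap it. Capitals mark the letters of CHR motifs (TTTGAA or TTTAAA or CTTGAA or TTCGAA) and of CCAAT boxes on either strand (ATTGG is CCAAT on the other strand). The regions are chr4:122745039-122745128 (minus strand) for CCNA2, chr5:68462887-68462961 (plus) for CCNB1, chr15:59397255-59397324 (plus) for CCNB2 and chr10:62538206-62538235 (plus) for CDK1.
CCNA2: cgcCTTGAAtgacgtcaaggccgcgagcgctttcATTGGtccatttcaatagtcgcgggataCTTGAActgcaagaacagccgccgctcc
CCNB1: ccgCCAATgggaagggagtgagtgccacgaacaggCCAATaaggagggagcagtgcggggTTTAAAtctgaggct
CCNB2: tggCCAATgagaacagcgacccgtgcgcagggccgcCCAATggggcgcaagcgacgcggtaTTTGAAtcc
CDK1: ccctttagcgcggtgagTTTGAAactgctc

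Before the starts shown, each of these 4 genes held a CHR motif within 30 bases. It lay at bases -28 to -23 of CCNA2, at -30 to -25 of CCNB1 and at -29 to -24 of CCNB2. Before the second start of CDK1 it lay at -13 to -8. Positions are counted back from the RefSeq start. For CCNB1 and CCNB2 that start lies inside the annotated first exon, so the stretches shown end at -16 and -21. In the 250 bases before the start, CCNB1, CCNB2 and the second start of CDK1 also held 2, 4 and 2 CCAAT boxes, and CCNA2 held 1. The first start of CDK1, not shown, differed: its CHR motifs lay farther off, at -161 to -156 and -131 to -126, with 1 CCAAT box and 1 E2F motif. Over all 250 bases, a CHR motif was found in 29.1% of 35116 RefSeq promoters, 2 or more CCAAT boxes in 9.53%, and both together in 2.84%. The share of promoters with a CHR motif within 30 bases of the start was not computed. E2F motifs (TTGGCGC or TTCCCGC or TTCGCGC or TTGCCGC) were found in 10.9% of promoters, and once before CCNB1 and 2 times before the second start of CDK1. Among the G1 and G1/S genes, no CHR motif was found before the 3 starts of CCND3 or the start of CDK4, and CCNE1 held 1 (TTTAAA, at -28 to -23). These are letter matches on either strand, in which TTTAAA and TTCGAA read the same on both strands, and no binding was measured. CCND1 and CDK2 had no entry among the RefSeq promoters, and CCNE2 was left out of the search, so no motifs are given for them.

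With BenSer, the 4 genes of S phase, G2 and mitosis stood at 0.614 to 0.697 times their control levels, whereas with GPNA none stood below 0.922 times. Their summed level was 257 and 253 CPM in the 2 control columns, 241 and 242 CPM under GPNA, and 165 and 168 CPM under BenSer. The BenSer columns lay far below all the others and the GPNA columns slightly below the control.

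CDK1, the mitotic kinase, was the most abundant of these 4 transcripts, also per length. It stood at 126 and 122 CPM in the control, 115 and 117 CPM under GPNA and 76.0 and 76.3 CPM under BenSer. The 3 groups did not overlap, and the gap between BenSer and the rest was many times wider than that between columns of a group. On the log2(CPM + 1) scale the difference from the control was -0.70 with BenSer (95% interval -0.75 to -0.64) and -0.10 with GPNA (-0.15 to -0.048). CDK1 was the only one of the 10 genes at least 1.5-fold lower with BenSer, a call made for 1.58% of the 18976 genes tested, and none was 1.5-fold higher, against 1.96%. Only 0.611% of those genes had a lower difference. The gene lies at chr10:62538089-62554610 on the plus strand.

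CCNB1 (chr5:68462962-68474072, plus), which with CCNB2 encodes the mitotic partners of CDK1, stood at 55.0 and 56.4 CPM in the control, 52.3 and 50.4 CPM under GPNA and 38.4 and 37.8 CPM under BenSer. CCNB2 (chr15:59397325-59417244, plus) stood at 33.0 and 34.2 CPM in the control, 33.0 and 32.4 CPM under GPNA and 22.8 and 24.0 CPM under BenSer. In both genes the BenSer columns were the lowest of the 6. The log2 difference with BenSer was -0.54 for CCNB1 (-0.61 to -0.46) and -0.50 for CCNB2 (-0.60 to -0.40). With GPNA it was -0.11 for CCNB1 (-0.19 to -0.037), whose columns did not overlap with the control. For CCNB2 the GPNA and control columns overlapped, and the difference of -0.037 (-0.13 to 0.060) turned to 0.0013 under TMM scaling.

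CCNA2 (chr4:122737599-122745038, minus), the cyclin of S phase and G2, stood at 42.7 and 40.5 CPM in the control, 40.5 and 42.7 CPM under GPNA and 28 and 29.5 CPM under BenSer. The control and GPNA columns covered the same range, and both BenSer columns lay below it. The log2 difference was -0.52 with BenSer (-0.61 to -0.43). With GPNA it was -0.00012 (-0.088 to 0.087), and 0.039 under TMM scaling.

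**Figure D1:**
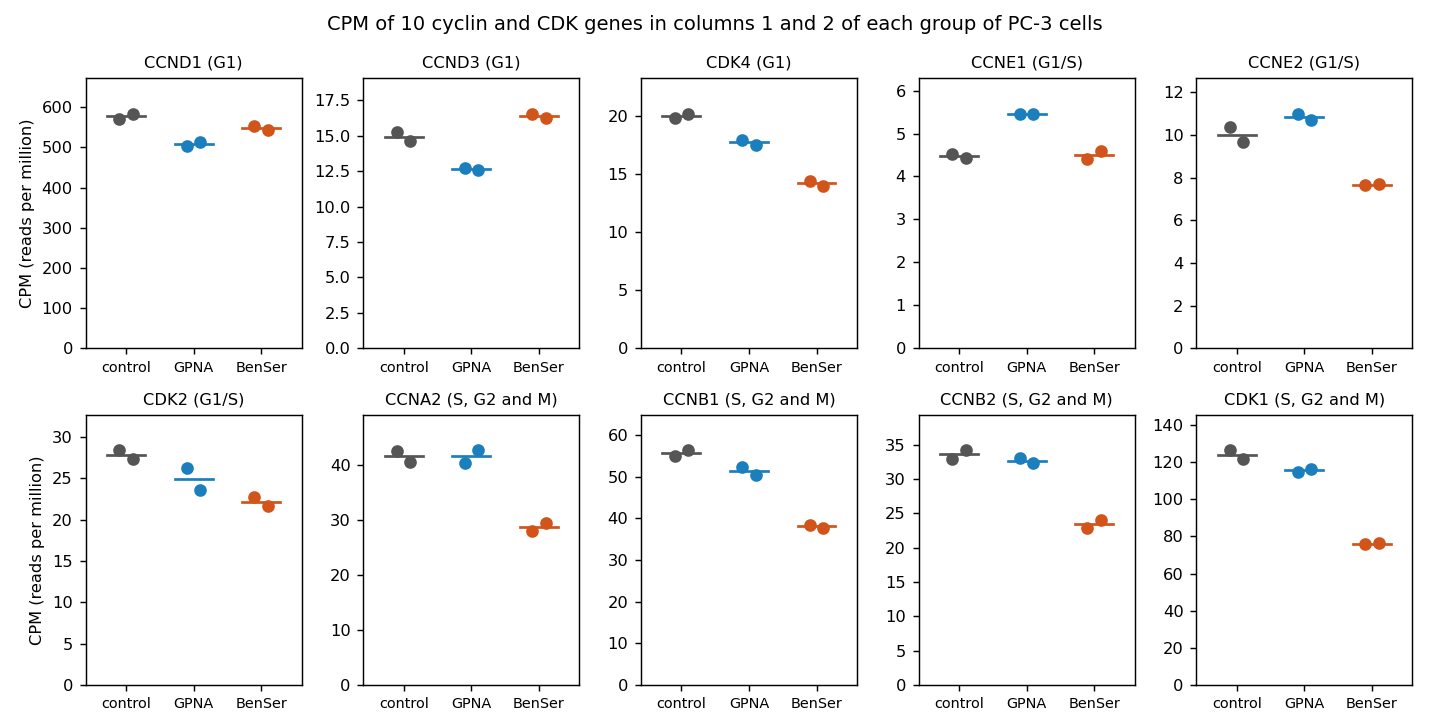
CPM (y axis from 0) of each of the 10 cyclin and CDK genes in columns 1 and 2 (points) of the control, GPNA and BenSer groups, with the mean of the columns as a bar. In CCNA2, CCNB1, CCNB2 and CDK1 both BenSer columns sit below every other column (76.0 and 76.3 CPM against 115 or more for CDK1), while CCND1 stays between 505 and 584 CPM.

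The genes of G1 were all 3 lower with GPNA, like 10683 of all 18828 genes tested. The 3 were lower by similar amounts and differed among themselves with BenSer. Their summed level, nearly all of it CCND1, was 606 and 619 CPM in the control, 536 and 544 CPM under GPNA and 584 and 575 CPM under BenSer, so that the GPNA columns were the lowest. CCND1, the cyclin that links growth signals to G1 progress, lies at chr11:69455924-69469242 on the plus strand. It stood at 571 and 584 CPM in the control, 505 and 513 CPM under GPNA and 553 and 545 CPM under BenSer. The groups did not overlap, and the order was control, BenSer, GPNA. The log2 difference was -0.18 under GPNA (-0.21 to -0.16; -0.14 under TMM scaling) and -0.075 with BenSer (-0.097 to -0.052). The BenSer difference shrank to -0.028 under TMM scaling.

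CCND3 (chr6:41902672-42018095, minus), another D-type cyclin, stood at 15.2 and 14.6 CPM in the control, 12.8 and 12.6 CPM under GPNA and 16.6 and 16.3 CPM under BenSer. Its GPNA columns lay below the control and its BenSer columns above it. The log2 difference was -0.22 under GPNA (-0.37 to -0.075) and 0.13 with BenSer (-0.0016 to 0.26), the latter with an interval that reached 0. Under TMM scaling these were -0.18 and 0.17.

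CDK4 (chr12:58141510-58149796, minus), the kinase partner of the D-type cyclins, was lower in both treated groups. It stood at 19.9 and 20.2 CPM in the control, 18.0 and 17.6 CPM under GPNA and 14.5 and 14 CPM under BenSer, with no overlap between groups. The log2 difference was -0.17 under GPNA (-0.29 to -0.039) and -0.47 with BenSer (-0.59 to -0.34), which put CDK4 next to the mitotic cyclins in size. Under TMM scaling these were -0.13 and -0.42. CDK6, the other kinase of the D-type cyclins, averaged 61.7 CPM in the control, 48.6 CPM under GPNA and 59.1 CPM under BenSer. The log2 difference of CDK6 was -0.34 under GPNA and -0.061 with BenSer. Of these partner kinases, CDK6 had the larger difference with GPNA and CDK4 with BenSer. CCND2 was not among the listed genes.

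Of the genes of the G1/S transition, CDK2 and CCNE2 were lower with BenSer and CCNE1 was not. The 3 together summed to 43.3 and 41.4 CPM in the control, 42.7 and 39.8 CPM under GPNA and 34.8 and 33.9 CPM under BenSer, so that control and GPNA overlapped and BenSer lay below both. CDK2 (chr12:56360565-56366573, plus), the kinase of E-type cyclins and of cyclin A2, stood at 28.4 and 27.3 CPM in the control, 26.2 and 23.6 CPM under GPNA and 22.8 and 21.6 CPM under BenSer. Its groups did not overlap. The log2 difference of CDK2 was -0.16 under GPNA (-0.26 to -0.048) and -0.32 with BenSer (-0.42 to -0.21).

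The E-type cyclins were the least abundant of the 10 genes and the least precise. CCNE2 stood at 10.4 and 9.66 CPM in the control, 11 and 10.7 CPM under GPNA and 7.64 and 7.70 CPM under BenSer. Its columns were highest with GPNA and lowest with BenSer, and the log2 difference was 0.11 under GPNA (-0.058 to 0.27) and -0.35 with BenSer (-0.51 to -0.18). CCNE1 (chr19:30302898-30315219, plus) stood at 4.52 and 4.42 CPM in the control, 5.47 and 5.46 CPM under GPNA and 4.41 and 4.60 CPM under BenSer. Only its GPNA columns stood apart, above the other 4. The log2 difference of CCNE1 was 0.24 under GPNA (0.021 to 0.46). With BenSer it was 0.0098 (-0.21 to 0.23), with columns that overlapped the control and a sign that turned when single columns were left out. CCNE1 rested on 207 reads in the control, against 26758 reads for CCND1.

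**Figure D2:**
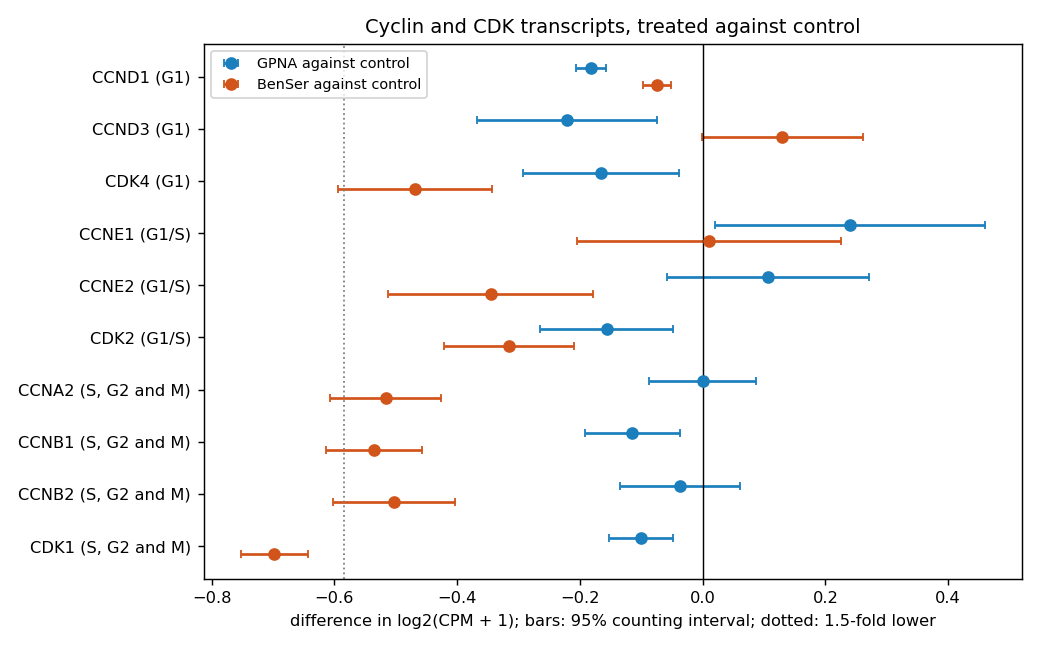
Difference of each cyclin or CDK gene from the control in log2(CPM + 1) (x axis) with GPNA (blue) and BenSer (orange), with 95% counting intervals as bars and 1.5-fold lower as a dotted line. The BenSer points of CCNA2, CCNB1, CCNB2 and CDK1 lie between -0.50 and -0.70 and the GPNA points of the same genes between -0.11 and -0.00012; for CCND1 and CCND3 the GPNA point is the lower one.

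Per kilobase of the canonical transcript, the control levels ran from 136 CPM per kb for CCND1 through 65.7 for CDK1, 27.4 for CCNB1, 22.6 for CCNB2, 15.1 for CCNA2, 12.4 for CDK2, 10.8 for CDK4, 7.37 for CCND3 and 3.75 for CCNE2 to 2.29 CPM per kb for CCNE1. With BenSer the same order held except that CCND3 (8.11 CPM per kb) stood above CDK4 (7.63 CPM per kb). CDK1 stood at 40.3 CPM per kb with BenSer and 61.3 CPM per kb with GPNA. Exons of 5 of the genes overlap a listed gene on the other strand, which matters where reads are counted without strand, and the setting used is not given in the sources used here. Those neighbours were INTS8 for CCNE2 (89.1 to 96.3 CPM), LTO1 for CCND1 (15.2 to 20.4 CPM), EXOSC9 for CCNA2 (9.70 to 12.4 CPM), TSPAN31 for CDK4 (7.88 to 9.07 CPM) and PMEL for CDK2 (under 1 CPM). A further RNA on the other strand of CCNE2 was under 1 CPM.

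The median log2 difference of the 10 genes was -0.11 under GPNA and -0.41 under BenSer, beside -0.028 over all genes tested in either comparison. Both comparisons use the same control columns. With GPNA, none of the 10 was at least 1.5-fold lower, against 0.0637% of 18828 genes, or 1.5-fold higher, against 0.34%. Both GPNA columns lay below both control columns in 6 of the 10 genes, against 34.4% of all genes, and above them in 2, against 22.4%. With BenSer, both columns lay below the control in 8 of 10 genes, against 37.5% of all genes, and above it in CCND3, against 28.5%.

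In limma's comparison of the libraries, at an adjusted p under 0.05, 4 of the 10 genes (CCND1, CCND3, CCNB1 and CDK1) were lower with GPNA, against 12.6% of all genes. None was higher, against 5.24%. Under TMM scaling CCND1 alone was called lower, and edgeR and DESeq2 on the recovered reads also made 1 call. The TMM scaling moved limma's calls over all genes from 2377 lower and 986 higher to 1619 lower and 1372 higher. With BenSer, 8 of the 10 genes were lower, all but CCND3 and CCNE1, against 20.9% of all genes, and none was higher, against 15%. The smallest limma adjusted p among the 8 was 2.36e-15 for CDK1, and the largest were 0.000149 for CCND1 and 0.0021 for CCNE2. Under TMM scaling CCND1 was no longer called (limma adjusted p = 0.112), CCND3 was called higher (0.0346), and the calls over all genes moved from 3971 lower and 2855 higher to 3321 lower and 3512 higher. The replicate block added CDK2 to the genes lower with GPNA, which made 5.

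**Figure D3:**
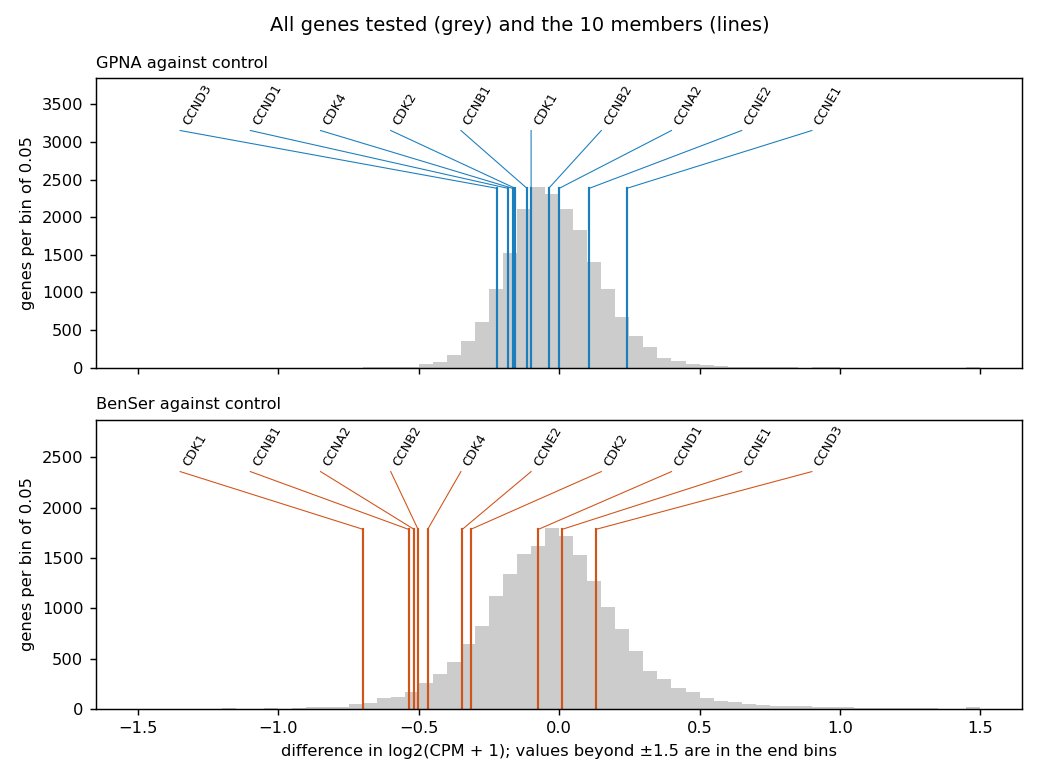
Histograms of the difference from the control in log2(CPM + 1) over all genes tested (grey, number of genes per bin of 0.05) with the 10 cyclin and CDK genes as lines, for GPNA (top) and BenSer (bottom). With GPNA the lines lie within the bulk of the genes (-0.22 to 0.24), and with BenSer 5 of them, from CDK1 at -0.70 to CDK4 at -0.47, lie in the lower tail.

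Set directly beside each other, the BenSer columns were below the GPNA columns in 8 of the 10 genes (33.6% of 19056 genes) and above them in CCND1 and CCND3 (31.7%). CDK1 was again the only gene at least 1.5-fold lower (0.813% of genes; none was 1.5-fold higher, against 1.05%), at a log2 difference of -0.60 (-0.65 to -0.54). The difference was -0.52 for CCNA2 (-0.60 to -0.43), -0.47 for CCNB2 (-0.56 to -0.37), -0.45 for CCNE2 (-0.61 to -0.29) and -0.42 for CCNB1 (-0.50 to -0.34), whereas CCND3 was higher with BenSer by 0.35 (0.22 to 0.48). The median over the 10 genes was -0.36, beside -0.0093 over all genes. In limma 7 of them were lower (16.4% of genes) and CCND1 and CCND3 were higher (17.3%). Since 10 mM BenSer stood against 1 mM GPNA, compound and dose cannot be told apart in these values.

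The other cyclins lay on both sides of the control. Of 17, 16 were listed, with a median log2 difference of -0.040 with either compound; in limma 2 of 16 were lower and 1 higher with GPNA (12.6% and 5.24% of all genes), and 4 lower and 5 higher with BenSer (20.9% and 15% of all genes). The 2 genes at least 1.5-fold higher with BenSer (1.96% of all genes) were CCNG2, an atypical cyclin linked to cell cycle arrest, and CCNA1, the A-type cyclin best known from the germ line. CCNG2 stood at a mean of 16 CPM in the control, 24.2 CPM under GPNA and 29.3 CPM under BenSer (log2 differences of 0.56 and 0.83). CCNA1 stood at 5.38, 5.95 and 10.2 CPM (0.12 and 0.82), so that the A-type cyclins differed in direction with BenSer. At the other end were CCNF, a cyclin that serves in a ubiquitin ligase (18.8, 15.0 and 14.4 CPM; -0.31 and -0.36), and CCNH, the partner of the CDK-activating kinase (54.7, 51.7 and 48.7 CPM; -0.081 and -0.16).

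The other CDKs, of which 17 of 18 were listed, had medians of -0.067 with GPNA and -0.0060 with BenSer. None was 1.5-fold different, and limma called 3 of 17 lower and none higher with GPNA (12.6% and 5.24% of all genes) and 3 lower and 3 higher with BenSer (20.9% and 15%), shares near those of all genes with BenSer. CDK10 averaged 11.9 CPM in the control, 12.8 CPM under GPNA and 9.44 CPM under BenSer, and CDK16 averaged 98.3, 83.5 and 86.7 CPM. CDK13, a kinase of RNA polymerase II, had means of 56.5, 55.5 and 66.3 CPM, and CDK19, a kinase of the Mediator complex, of 25.5, 24.8 and 30.8 CPM. With BenSer the log2 differences of these 4 were -0.31 for CDK10, -0.18 for CDK16, 0.23 for CDK13 and 0.27 for CDK19, all smaller than that of CDK4.

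A list of 12 genes held kinases and phosphatases that act on CDKs, directly or through other kinases, and partner proteins of such kinases. Its median log2 difference was -0.39 with BenSer, beside -0.41 for the 10 cyclins and CDKs, and -0.17 with GPNA. In limma 7 of 12 were lower and 1 was higher with BenSer (20.9% and 15% of all genes), and 6 were lower and none was higher with GPNA (12.6% and 5.24%). The 4 at least 1.5-fold lower with BenSer (1.58% of all genes) were CDKN3, PKMYT1, PLK1 and CDC25A, the last 2 of which were named after their values were seen. CDKN3, a phosphatase of CDKs, stood at 104 and 102 CPM in the control, 89.8 and 89.3 CPM under GPNA and 56.8 and 55.8 CPM under BenSer. Its log2 difference of -0.86 with BenSer (-0.20 with GPNA) was larger than that of CDK1. PKMYT1, which holds CDK1 inactive until mitosis, had means of 8.29, 6.03 and 4.66 CPM and log2 differences of -0.40 with GPNA and -0.71 with BenSer. PLK1, a mitotic kinase, differed by -0.64 and CDC25A, a phosphatase that activates CDKs, by -0.60 with BenSer. CDC25B (38.5, 37.7 and 41.3 CPM) and CDC14A (5.16, 4.78 and 6.47 CPM) were highest with BenSer, at 0.096 and 0.28.

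The CDK-binding and inhibitor proteins held genes called in both directions with BenSer. Over 9 genes the median log2 difference was -0.018 under GPNA and 0.19 with BenSer, and limma called none lower and 2 higher with GPNA (12.6% and 5.24% of all genes) and 3 lower and 4 higher with BenSer (20.9% and 15%). CDKN1A, which encodes the inhibitor p21, stood at 8.18 and 8.45 CPM in the control, 13.5 and 11.7 CPM under GPNA and 16.9 and 17.3 CPM under BenSer. The groups did not overlap, and the log2 difference was 0.55 under GPNA and 0.96 with BenSer. CDKN2B, which encodes the CDK4 and CDK6 inhibitor p15, had means of 24.0, 28.2 and 42.6 CPM, with log2 differences of 0.23 and 0.81. CKS1B, a small subunit bound to CDKs, was lower with BenSer (91.2, 89.4 and 69.3 CPM; -0.029 with GPNA and -0.39 with BenSer), and so was CDKN2C, the inhibitor p18 (20.7, 19.9 and 15.7 CPM; -0.056 and -0.38).

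**Figure D4:**
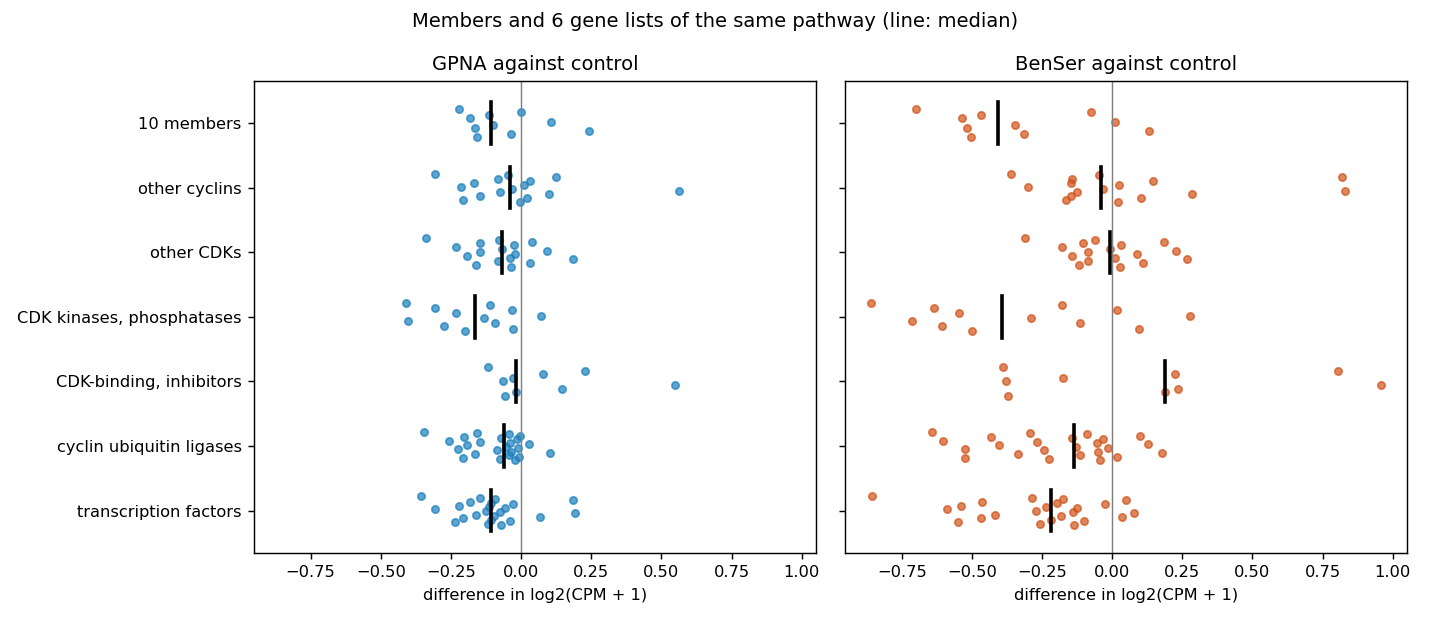
Difference from the control in log2(CPM + 1) (x axis) of each gene (point) in the 10 cyclin and CDK genes and in 6 lists of the same pathway, with the median of each list as a line, for GPNA (left) and BenSer (right). With BenSer the medians of the 10 genes (-0.41) and of the list of CDK kinases, phosphatases and partner proteins (-0.39) lie lowest. That of the CDK-binding and inhibitor proteins (0.19) lies highest.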

How the data were processed

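PC-3 RNA libraries were made by the authors with a stranded total RNA kit, and the reads were trimmed and mapped to hg19/GRCh37.p13 with TopHat2, per the study's methods. The submitters' processing notes name HTSeq 0.6.2p2. The value columns of the 2 deposited tables are named as counts but hold CPM, which the authors made by dividing gene reads by the library total. All values (100%) were whole reads within 1e-06, so reads were recovered. The tables also hold the authors' own log2 fold changes, average log2 CPM, p-values and false discovery rates, which were not used. Each table has 4 columns per group, the number of replicates that the study's methods give, and the labels name 2 libraries per group; 8 column entries (6 distinct) could not be matched to a label by name and were not used.

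Differences are of log2(mean CPM + 1) and genes were tested where 1 of the groups averaged 5 or more reads. The 10 genes, the pathway lists and the tests were chosen with earlier results of these data known. Nothing in the labels says that columns came from separate cultures, so p-values measure only the spread between these libraries. Calls used a 1.5-fold threshold on that scale and limma 3.58.1 (R 4.3.3, variance trend, Benjamini-Hochberg adjustment over all genes tested); edgeR 4.0.16 quasi-likelihood tests and DESeq2 1.42.0 on recovered reads were alternatives, and edgeR called 1553 genes lower and 1300 higher with GPNA and 3331 and 3472 with BenSer. The fits were also run on simulated reads with counting error only, which cannot show how they treat spread between cultures. Intervals are exact (Clopper-Pearson, 95%) on merged reads. Other alternatives were pseudocounts, scalings, filters, fold thresholds, a replicate block and leaving out each column. From each pathway list the text names the 2 highest and 2 lowest genes with BenSer with at least 5 CPM in either group, and CCND2, CDK6, CDC20 and UBE2C. Promoters are from RefSeq (GRCh38.p14 table), placed in GRCh37 by exact match; gene positions and transcript lengths are from GENCODE v44lift37. Python 3.11.15, pandas 2.3.3, scipy 1.17.1 and matplotlib 3.10.9 were used.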

Additional observations from a re-analysis of the deposited data

Results flagged for a closer look

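In 7 of the 39 genes named in the text and listed, the columns of the 2 treatments lay on opposite sides of both control columns, with 1 sample per group. Of the 111 genes of the pathway, the named ones included, 10 (9.01%) lay so, and of 18588 genes tested against the control with both compounds 9.35%. That the treatments moved a gene in opposite directions was not tested. The 7 were picked by this layout, which already sets the BenSer columns apart from the GPNA columns. A comparison of BenSer with GPNA was therefore no separate check of them. Against the control, limma called only CCND3 with GPNA, and CCNE2, CDC14A, CDK10, CDK13 and FBXO4 with BenSer. None of the 7 was called with both compounds. A D-type and an E-type cyclin were among them. CCND3 was lower with GPNA (-0.22 in log2(CPM + 1)) and higher with BenSer (0.13). CCNE2 was higher with GPNA (0.11) and lower with BenSer (-0.35). Of the other CDKs, CDK10 was higher with GPNA (0.093) and lower with BenSer (-0.31). CDK13 was lower with GPNA (-0.025) and higher with BenSer (0.23). CDC14A, a phosphatase that counters CDKs, was lower with GPNA (-0.092) and higher with BenSer (0.28). ANAPC2, a subunit of the anaphase-promoting complex, was lower with GPNA (-0.20) and higher with BenSer (0.13). FBXO4, which takes cyclin D1 to a ubiquitin ligase, was higher with GPNA and lower with BenSer (-0.60).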

How the results depend on the processing

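None of the 10 genes reversed a called direction under the alternatives run. With GPNA the median log2 difference of -0.11 was -0.068 under TMM scaling and -0.070 with DESeq2 size factors, and the 4 genes lower by limma became 1 under TMM scaling, 1 by edgeR, 1 by edgeR with a replicate block and 1 by DESeq2, and 1 to 2 when single columns were left out. With BenSer the median of -0.41 was -0.44 with a pseudocount of 0.1, -0.33 with a pseudocount of 5, and -0.36 under TMM scaling and with DESeq2 size factors. Beside the 1 gene at least 1.5-fold lower with BenSer, 6 genes were at least 20% lower in CPM + 1 and 0 at least 2-fold lower. Between BenSer and GPNA the count of 1 was 5 at 20% lower in CPM + 1, 0 at 2-fold lower and 0 with a pseudocount of 5, with which the median of -0.36 was -0.28. Leaving out single columns gave 6 to 8 genes lower by limma with BenSer, where CCND1 and CCNE2 were lost without either BenSer column, and 6 to 7 against GPNA, where CDK2 was lost. DESeq2 gave 6 genes lower with BenSer, without CCND1 and CCNE2. Over all genes, leaving out a column gave 235 to 1788 limma calls lower and 109 to 790 higher with GPNA and 1773 to 3091 lower and 1157 to 2193 higher with BenSer, DESeq2 gave 534 and 445 with GPNA and 1939 and 2016 with BenSer, and a pseudocount of 0.1 moved the 1.5-fold counts from 12 lower and 64 higher to 652 and 879 with GPNA and from 300 and 371 to 1397 and 1205 with BenSer. The cause was not tested.

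Between groups, deviations of the columns from their group means correlated at 0.013 to 0.035 over 10618 genes. These deviations were mostly counting error, which is independent between libraries and keeps such correlations low even for paired columns. Whether the column numbers pair the libraries could therefore not be decided. With the replicate block limma called 5 of the 10 genes lower with GPNA (CDK2 added, adjusted p = 0.0478), 8 with BenSer and 7 between BenSer and GPNA. Reads limit CCNE1 and CCNE2 most, and the number of samples limits every comparison.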

Other observations

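A list of 24 genes held genes of the ubiquitin ligases that remove cyclins, and an inhibitor of the anaphase-promoting complex. With BenSer, 13 were lower by limma, that inhibitor included, and none was higher (20.9% and 15% of all genes). With GPNA, 7 were lower and none was higher (12.6% and 5.24% of all genes). The median log2 difference was -0.14 with BenSer and -0.063 with GPNA. CDC20, the activator of the anaphase-promoting complex that marks cyclin B1 for destruction, stood at 75.6 and 78.6 CPM in the control, 60.2 and 60.7 CPM under GPNA and 48.8 and 49.3 CPM under BenSer. The groups did not overlap, and the log2 difference was -0.35 under GPNA and -0.64 with BenSer. UBE2C and UBE2S, the ubiquitin-conjugating enzymes of that complex, differed by -0.52 and -0.53 with BenSer and by -0.055 and -0.21 with GPNA. With CDC20, the other gene at least 1.5-fold lower with BenSer (1.58% of all genes) was FBXO4 (-0.60), named after its value was seen. FBXO4 averaged 3.91 CPM in the control, 4.27 CPM under GPNA and 2.23 CPM under BenSer, below the 5 CPM asked of genes named by rule. The core subunits CDC26 and ANAPC2 were highest with BenSer, at 0.18 and 0.13, and neither was called.

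A list of 23 genes held transcription factors that act on cyclin and CDK genes, and proteins that bind them or share their complexes. By limma, 14 of the 23 were lower and none was higher with BenSer (20.9% and 15% of all genes), at a median of -0.22. Under GPNA, 6 were lower and 1 was higher (12.6% and 5.24% of all genes), at a median of -0.11. E2F8, a repressor among the E2F factors, stood at 20.8 and 21.2 CPM in the control, 19.6 CPM in both GPNA columns, and 11.5 and 10.8 CPM under BenSer (log2 difference -0.86), while its paralogue E2F7 stood at 34.4, 36.1 and 35.6 CPM on average (0.066 with GPNA and 0.048 with BenSer). E2F2, an activator, stood at 6.93, 6.36 and 4.27 CPM (-0.11 and -0.59). RBL2, the pocket protein of the DREAM complex in resting cells, was the gene called higher with GPNA (0.18) and had a difference of 0.079 with BenSer.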
